A study of Mus musculus with 10 samples.

Results

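The actin cytoskeleton regulators described here are a list of 40 genes that build, cut, branch, bundle and anchor actin filaments, and the actin isoforms they act on; smooth muscle genes were left out of the list. Members were found as probe sets, the groups of array probes for a transcript, whose platform annotation names a single gene of the list. That gave 37 of the 40 genes with 94 probe sets. Of these, 36 genes with 81 probe sets passed a filter that removed the dimmest 40% of probe sets. Daam1, a formin, and Actr2, a subunit of the Arp2/3 complex, had no probe set named for them here, and the Arp2/3 subunit gene Arpc1b was named only on probe sets that also list another gene. Vil1, which encodes the microvillar bundler villin, was measured but too dim for the filter, at 0.2 to 4.8 in SCARKO pools and 2.7 to 5.3 in control pools.

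Whole testes of 10 day old SCARKO mice, in which the androgen response is removed from Sertoli cells, were compared with testes of 10 day old control mice, which carried the AMHCre transgene per the labels. The Amh promoter of such transgenes is active in Sertoli cells, so germ cells, Leydig cells and peritubular cells are not the targets of the deletion, and all were present in the tissue. Each of the 10 arrays held RNA pooled from 1 testis of each of 3 littermates, and the 5 SCARKO pools and 5 control pools were made as 5 littermate pairs. In whole testis, fewer cells of a type and less RNA per cell cannot be told apart.

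Actin exists as free monomers and as filaments. Profilin and thymosins hold monomers, formins assemble unbranched filaments, the Arp2/3 complex starts branches when activated by proteins such as N-WASP, and cofilin and gelsolin take filaments apart. In Sertoli cells, bundled actin lines the junctions between neighbouring Sertoli cells and those that hold maturing germ cells, structures known as ectoplasmic specializations, where espin, Eps8, palladin and vinculin are found. RNA of 10 day old whole testis does not show whether these structures had formed, so the genes are not a measure of them here.

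Titles and descriptions name opposite genotypes for the 8 arrays of pairs 1 to 4 and the same genotype for the 2 arrays of pair 5. Groups were taken from the titles, and every direction given here rests on them: with groups from the descriptions no member passed in limma (1 of 36 at an unadjusted p under 0.05), and Fhod3, Cnn3 and Tmsb4x changed sign, at -0.72, -0.13 and 0.11 on the log2 scale. The descriptions turn 4 of 5 pairs round and leave pair 5 as it is. The changes of sign and the loss of calls follow largely from that, so they are not a test of the labels. The androgen-regulated homeobox gene Rhox5 had a signal of 7.9 to 12.7 in the SCARKO pools and 86.6 to 241.4 in the control pools as titled, and it was lower in SCARKO in each of the 5 pairs, pair 5 included. The deposited signals were scaled alike, with medians from 36.4 to 37.6. Markers of Sertoli cells (10 of 10), spermatogonia (8 of 8), meiotic prophase (7 of 7), Leydig cells (5 of 7) and peritubular myoid cells (10 of 10) passed the signal filter, and no passing marker was at 0 on any array. The ratio of 3′ to 5′ signal of the beta-actin control probe sets, a sign of RNA and labelling quality, was 1.16 to 1.32 in SCARKO pools and 1.21 to 1.304 in control pools, higher in SCARKO in 3 of 5 pairs (exact sign-flip test within pairs, two-sided p = 0.75, where 0.0625 is the smallest possible).

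Of the actin machinery, 33 of 36 measured genes did not pass the test between SCARKO and control testes, and 3 did. The formin gene Fhod3 and the calponin gene Cnn3 rose, and Tmsb4x, which encodes the monomer-binding peptide thymosin beta-4, fell. With limma and Benjamini-Hochberg adjustment over all 13576 probe sets, 3 of the 36 measured members (8.33%) were called at an adjusted p under 0.05, against 5.69% of all 7973 measured genes, each gene standing on its brightest probe set. The 2 rises among 36 compare with 2.17% of all genes and the 1 fall with 3.52%. By probe set, 5 of 81 (6.17%) were called, against 5.19% of all probe sets, which is close to the background, and Fhod3 entered the test only through its SCARKO signal; 3 were higher in SCARKO, against 1.93% of all probe sets, and 2 lower, against 3.26%. The median log2 fold change of the members was 0.0088, against 0.0155 for all genes, with 20 members above 0 and 16 below. Of the members, 12 (33.3%) had an unadjusted p under 0.05, against 21.7% of all genes. Fhod3 and Espn are among the 12, and each passed the filter only through the group in which it was higher. The list was also chosen with earlier results of these data known, so these shares cannot show an excess among the members.

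**Figure D1:**
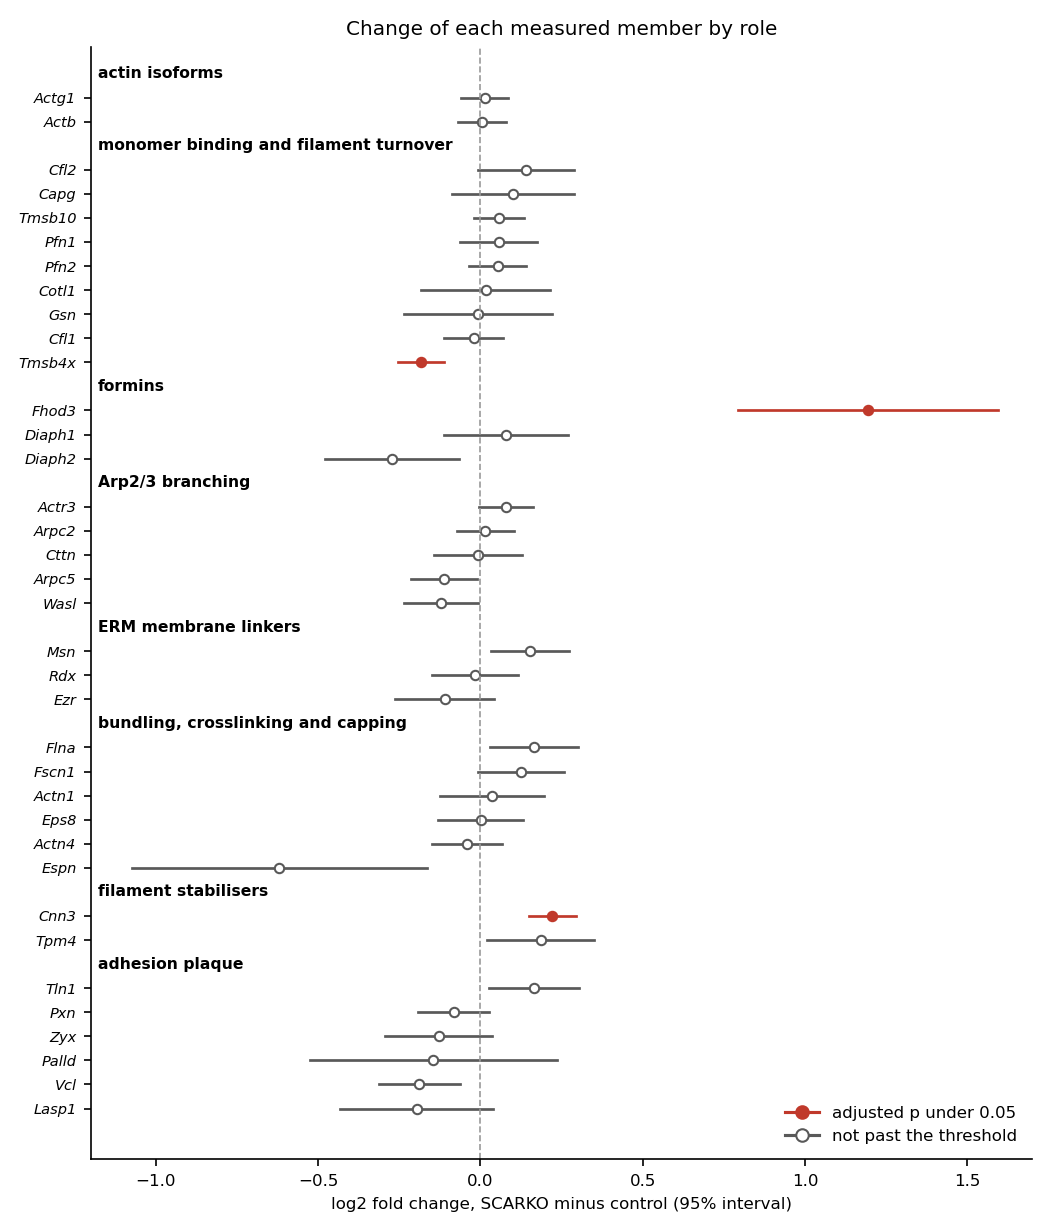
Log2 fold change (SCARKO minus control, x axis) of each of the 36 measured members, grouped by role, with its 95% interval from limma; filled red points passed an adjusted p under 0.05. Fhod3 lies far to the right at 1.19, Cnn3 at 0.22 and Tmsb4x at -0.18, and 4 members in all lie more than 0.2 from 0.

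Fhod3, on chromosome 18, encodes a formin that organizes actin filaments in muscle sarcomeres and in stress fibres. Its signal was 38.6, 39.9, 43.6, 48.4 and 42.1 in SCARKO pools 1 to 5 and 17.3, 33.1, 13.7, 15.1 and 18.4 in control pools 1 to 5. Every SCARKO pool was above every control pool, and control pool 2 was the high one of its group. Groups that do not overlap were seen for 2 of the 36 members, Fhod3 and Cnn3, and for 5.26% of all genes. The log2 fold change of Fhod3 was 1.19 (SE 0.18, 95% interval 0.80 to 1.59, adjusted p = 0.00397). Its control mean, 4.21 on the log2 scale, lay below the lowest mean kept by the filter, 4.27, so Fhod3 passed the filter only through its SCARKO mean of 5.41, and its call is not independent of the filter. Within pairs 1 to 5 the log2 differences were 1.16, 0.27, 1.67, 1.68 and 1.19. In 4 control pools the signal was under 19.3, the mean level that separated kept from dim probe sets, and adding 16 to all values before log2 gave a smaller rise of 0.74 (adjusted p = 0.00325). Fhod3 has a single probe set on this array, and the call was lost without the filter on dim probe sets (adjusted p = 0.11).

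Neither of the other 2 measured formins passed. Diaph1, a formin that assembles unbranched filaments, had signals of 63.9 to 85.8 in SCARKO pools and 60 to 76.7 in control pools, groups that overlapped widely (log2 fold change 0.08, adjusted p = 0.661). Diaph2, an X-linked relative of Diaph1, had signals of 60.5, 68.0, 69.3, 62.3 and 51.4 in SCARKO pools and 71.9, 64.4, 94.5, 91.9 and 58.5 in control pools. It was lower in SCARKO in 4 of 5 pairs, pair 2 being the exception, with a log2 fold change of -0.27 (SE 0.09) that did not pass (adjusted p = 0.126). Without pair 2 it passed at -0.36 (adjusted p = 0.0472), but it did not without pair 1 (0.214), 3 (0.337), 4 (0.315) or 5 (0.206). The change of Fhod3 exceeded the mean change of Diaph1 and Diaph2 by 1.29 ± 0.78 (SD over 5 pairs) on the log2 scale, in the same direction in all 5 pairs. In an exact sign-flip test within pairs, p was 0.0625 (0.0625 adjusted over the 3 contrasts of this kind), the smallest it can give. These 3 contrasts set a called gene against uncalled relatives and were chosen after the values were seen. Their direction followed largely from that choice, so these p-values cannot show that the relatives differ. Of 9 further formin genes, Diaph3 was the 1 with a usable signal and had a log2 fold change of 0.15 (adjusted p = 0.504).

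**Figure D2:**
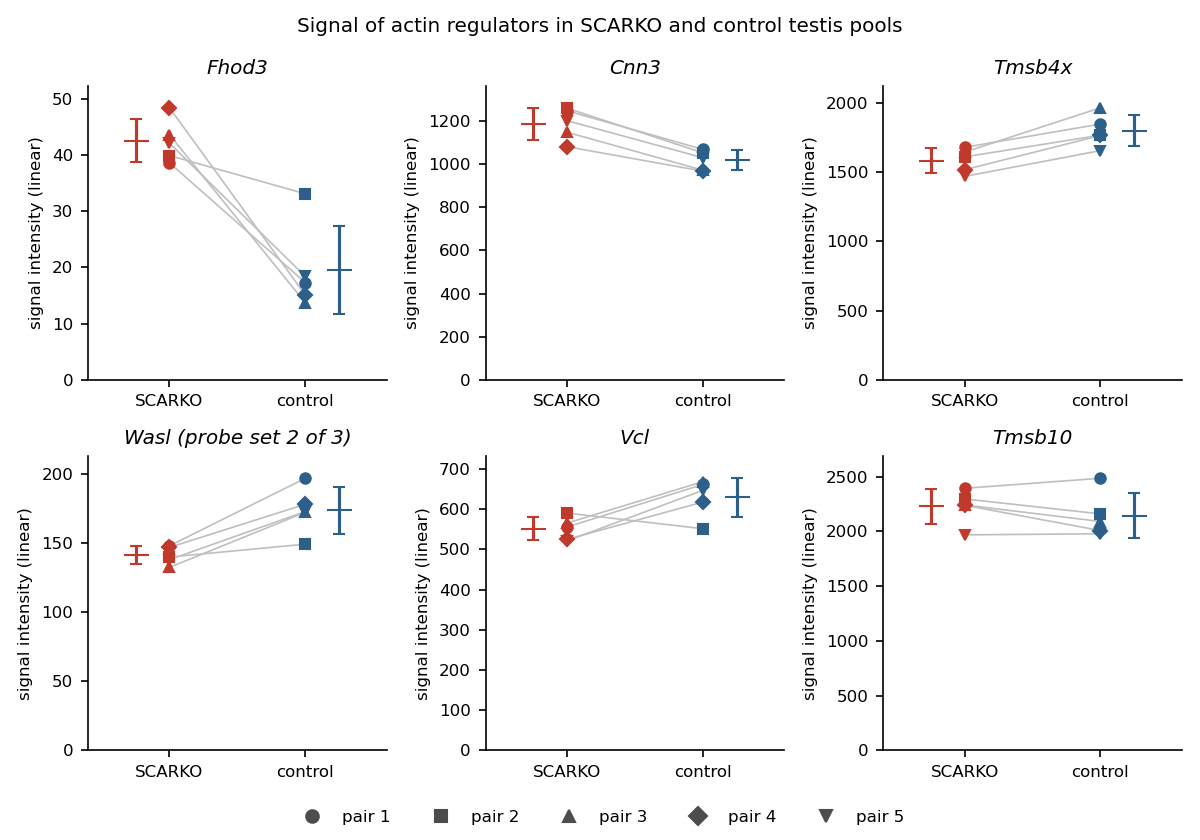
Signal intensity on a linear axis starting at 0 for 6 probe sets in the 5 SCARKO pools (left, red) and 5 control pools (right, blue); symbols mark the pair, grey lines join littermate pools, and bars give the mean ± SD. Fhod3 and Cnn3 do not overlap between groups, Tmsb4x falls in each pair and Tmsb10 does not.

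Cnn3, on chromosome 3, encodes the acidic calponin of non-muscle cells, which binds along actin filaments and steadies them. On its brightest probe set the signal was 1245.8, 1257.9, 1146.5, 1079.7 and 1200.1 in SCARKO pools and 1067.1, 1051.1, 970.7, 966.5 and 1028.5 in control pools. The lowest SCARKO pool was above the highest control pool, by a small margin. The log2 fold change was 0.22 (SE 0.03, adjusted p = 0.00361), a 16.6% higher signal, and the 5 within-pair differences lay between 0.16 and 0.26. Of its 6 measured probe sets, 2 were called and 5 had a positive change. The other called one averaged 535 ± 46.7 in SCARKO pools and 466 ± 36.7 in control pools (SD, n = 5 each; log2 fold change 0.20, adjusted p = 0.0315), a call lost with no littermate block (0.169), without the filter (0.134), without the variance trend (0.125) and without pair 1 (0.0853), 2 (0.0717), 3 (0.0932) or 5 (0.073). The rest ranged from -0.02 to 0.14 and none passed, and with the 6 probe sets averaged the change was 0.12 (adjusted p = 0.297), so the call depends on which probe sets stand for the gene. The brightest probe set carries the suffix that marks possible overlap with other transcripts, while the other called one does not.

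The related calponin of smooth muscle, Cnn1, had a log2 fold change of -0.12 (adjusted p = 0.458). The change of Cnn3 exceeded it by 0.34 ± 0.09 (SD over 5 pairs), in the same direction in all 5 pairs (exact sign-flip p = 0.0625, the smallest possible). This contrast of a called with an uncalled gene was also chosen after the values were seen, so its p-value decides nothing. Among the 10 markers of peritubular myoid and smooth muscle cells, which are rich in actin-binding proteins, none passed in limma, and 3 had an unadjusted p below 0.05. Their summed signal was 3969 to 4594 in SCARKO pools and 4358 to 4810 in control pools. Other marker lists had positive changes, as Fhod3 and Cnn3 had. All 8 spermatogonial markers had a positive change (median 0.13, none called), with a summed signal of 3211 to 3573 in SCARKO pools and 2977 to 3476 in control pools. All 7 measured macrophage markers did too (median 0.11, none called), with 445 to 537 in SCARKO pools and 382 to 526 in control pools. Lpl, the lipoprotein lipase gene and the 1 measured of 5 markers of fat and epididymis, averaged 249.4 ± 16.5 in SCARKO pools and 176 ± 27.7 in control pools (SD, n = 5 each), did not overlap and rose by 0.51 (limma adjusted p = 0.00196). With the rest of that list unmeasured, Lpl alone does not show that fat or epididymis was present or more abundant. The part of any of these cell types in the rises of Fhod3 and Cnn3 was not tested. Tpm4, a tropomyosin of non-muscle cells that coats filaments, had signals of 304.7, 298.5, 324.5, 269.3 and 297.8 in SCARKO pools and 292.3, 264.6, 217.2, 249.2 and 297.5 in control pools. It was higher in SCARKO in all 5 pairs, in pair 5 by 0.0015 on the log2 scale, and did not pass (log2 fold change 0.19, adjusted p = 0.184); without pair 3 the change was 0.09.

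Tmsb4x, on the X chromosome, encodes the main peptide that holds actin monomers in reserve. Its signal was 1677.1, 1608.1, 1642.4, 1515.4 and 1467.3 in SCARKO pools and 1845.2, 1764.7, 1962.3, 1762.5 and 1653.4 in control pools. The groups overlapped slightly, and the SCARKO pool was the lower one in each of the 5 pairs. Tmsb4x fell by 0.18 on the log2 scale (SE 0.03, adjusted p = 0.00778), a change of -12.0%. The call was lost with no littermate block (adjusted p = 0.0857), and both it and the Cnn3 call were lost without the filter on dim probe sets (adjusted p = 0.0864 for Tmsb4x and 0.0543 for Cnn3) and without the variance trend (0.112 and 0.0638). The summed signal of meiotic prophase markers moved the same way, with 1467 to 1910 in SCARKO pools, 1713 to 2590 in control pools and 3 of 7 called lower. Of 10 Sertoli cell markers, 3 were called lower, Cldn11 (log2 fold change -0.68), Nr0b1 (-0.86) and Gata1 (-0.50), and Fshr was called higher (0.42). The other 6 were not called: Amh had -0.71, Wt1 -0.09, Dhh -0.06, Clu -0.05, Sox9 0.05 and Inha 0.06. Of all genes, 3.52% were called lower and 2.17% higher. The summed signal of the 10 Sertoli markers was 4768 to 5124 in SCARKO pools and 5128 to 5556 in control pools. Within it, Cldn11 averaged 328 in SCARKO and 527 in control pools, and Nr0b1 126 and 231. Sox9 (168 and 163) and Inha (1043 and 1004) were not lower, so the sum does not stand for all 10 markers. The part of these cell types in the fall of Tmsb4x was not tested.

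Tmsb10, which encodes a second monomer-binding thymosin of the same family, did not pass. Its signal was 2393.5, 2296.5, 2241, 2238.5 and 1968.4 in SCARKO pools and 2485.1, 2159.8, 2090.2, 2007.5 and 1978.2 in control pools, with groups that overlapped throughout. Its log2 fold change was 0.06 (95% interval -0.02 to 0.14, adjusted p = 0.4), and all 3 of its measured probe sets had a positive change, up to 0.12. The probe set at 0.12 was higher in SCARKO in all 5 pairs, with a 95% interval of 0.03 to 0.21, and did not pass (limma adjusted p = 0.123). The change of Tmsb4x lay 0.24 ± 0.12 (SD over 5 pairs) below that of Tmsb10 on the log2 scale, with the same direction in all 5 pairs (exact sign-flip p = 0.0625, the smallest possible). Tmsb4x was taken as the called gene and Tmsb10 as the uncalled one after the values were seen, so this p-value decides nothing.

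The promoters of Tmsb4x and Cnn3, called in opposite directions, and those of Vcl and Actg1, which hold a CArG box, are given as the 250 bases before the annotated start, 5′ to 3′ on the gene's strand, from RefSeq on GRCm38.p6. Capitals mark TGTTCT or its reverse complement in Tmsb4x (chrX:167209219-167209468, minus strand), GGGCGG in Cnn3 (chr3:121426291-121426540, plus strand), and the CArG box in Vcl (chr14:20929148-20929397, plus strand) and Actg1 (chr11:120348496-120348745, minus strand).
Tmsb4x: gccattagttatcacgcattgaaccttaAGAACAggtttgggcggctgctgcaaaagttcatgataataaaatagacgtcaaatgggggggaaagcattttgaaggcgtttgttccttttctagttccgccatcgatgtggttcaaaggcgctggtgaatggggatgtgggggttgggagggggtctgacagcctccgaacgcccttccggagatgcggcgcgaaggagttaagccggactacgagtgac
Cnn3: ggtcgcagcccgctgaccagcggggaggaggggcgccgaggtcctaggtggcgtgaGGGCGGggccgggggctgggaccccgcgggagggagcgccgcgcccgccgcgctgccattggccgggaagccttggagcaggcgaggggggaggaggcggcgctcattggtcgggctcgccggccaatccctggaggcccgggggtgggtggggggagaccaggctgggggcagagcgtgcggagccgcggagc
Vcl: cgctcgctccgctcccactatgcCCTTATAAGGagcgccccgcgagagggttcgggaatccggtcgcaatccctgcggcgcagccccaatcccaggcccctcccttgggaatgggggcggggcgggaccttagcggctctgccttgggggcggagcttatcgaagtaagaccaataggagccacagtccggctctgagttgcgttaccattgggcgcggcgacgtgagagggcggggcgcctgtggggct
Actg1: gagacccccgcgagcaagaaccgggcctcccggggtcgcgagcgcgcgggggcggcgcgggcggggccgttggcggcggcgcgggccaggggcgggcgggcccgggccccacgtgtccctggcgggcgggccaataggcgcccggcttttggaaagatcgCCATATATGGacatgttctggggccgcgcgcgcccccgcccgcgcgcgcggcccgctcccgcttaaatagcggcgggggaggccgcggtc

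The CArG box is the sequence bound by serum response factor, TGTTCT is the half-site of the androgen response element, and GGGCGG is the core of the GC box bound by Sp1. All were searched on both strands of the 43 promoters listed for 33 members, and no match overlapped a match of another motif there. A CArG box was found in 3 of the 43 promoters (6.98%), those of Actg1, Vcl and Vil1, against 1.47% of all 32851 promoters of the same length. TGTTCT was found in 6 (14.0%), those of Actg1, Daam1, Flna, Palld, Rdx and Tmsb4x, against 16.1% of all promoters. GGGCGG was found in 33 (76.7%), against 32.7%. The full set includes non-coding and predicted genes. The genes with this GC box core included Tmsb4x, Cnn3, Vcl and Actg1, so it did not set Tmsb4x apart from Cnn3. Capitals do not mark every match in the printed sequences. The core stands in lower case in Tmsb4x, Vcl and Actg1, as does the androgen half-site in Actg1. A match is only these letters in this window. Promoters of Actb, Cotl1, Fhod3, Diaph1, Cttn, Eps8 and Pxn are not shown.

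Neither actin isoform passed. Actb, which encodes cytoplasmic beta-actin, had signals of 2612.5, 2360.7, 2328.7, 2203.8 and 2001.3 in SCARKO pools and 2594.9, 2353, 2178.7, 2150.1 and 2177.2 in control pools. The ranges overlapped throughout, and the log2 fold change was 0.0049 (95% interval -0.07 to 0.08, adjusted p = 0.955). Its dimmer probe set had -0.09 with a wider interval, -0.35 to 0.17. Actg1, which encodes gamma-actin, had a log2 fold change of 0.01 (95% interval -0.06 to 0.09, adjusted p = 0.872), with 2131.3, 2111.7, 2131.9, 2085.7 and 1924.7 in SCARKO pools and 2158.2, 1971.7, 2094.5, 2020.3 and 2047.6 in control pools, which overlapped throughout. After quantile normalization the 2 values were -0.06 and -0.05, so the sign turned with the scaling. Over all members, 21 of the 36 had a 95% interval that stayed within 1.2-fold in either direction. The share of all genes within that limit was not computed. The median SE was 0.060 for the members and 0.072 for all genes, so the count does not set the members apart.

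Among the other genes of monomer supply and filament turnover, none of 8 passed. Cfl2, the cofilin known from muscle, had signals of 471.4, 477.3, 489.7, 532.5 and 450.7 in SCARKO pools and 453.8, 484.6, 419.4, 384.3 and 458.8 in control pools, higher in SCARKO in 3 of 5 pairs (log2 fold change 0.14, adjusted p = 0.269), and without pair 4 the change was 0.06. Cfl1, the non-muscle cofilin, had a log2 fold change of -0.02, and the profilin genes Pfn1 and Pfn2 had 0.06 and 0.05. The filament-severing gelsolin gene Gsn had -0.0078 on its brightest probe set and 0.08 to 0.12 on the other 3. Capg, which caps filament ends, had 0.10 and the coactosin-like gene Cotl1 had 0.02, and on the brightest probe set the 95% interval of each of these included 0. The intervals of dimmer probe sets of Gsn (0.0071 to 0.24, adjusted p = 0.21), Cfl2 (0.0098 to 0.37, adjusted p = 0.213) and Tmsb10 (0.03 to 0.21, adjusted p = 0.123) did not.

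Of the branching machinery, 1 probe set of Wasl passed and no gene did on its brightest probe set. Wasl, on chromosome 6, encodes N-WASP, the activator that switches on the Arp2/3 complex. On its brightest probe set it had signals of 299.8, 292.4, 281.3, 298.7 and 268.8 in SCARKO pools and 321.7, 294, 304.9, 313.9 and 332.7 in control pools, lower in SCARKO in all 5 pairs (log2 fold change -0.12, SE 0.05, adjusted p = 0.213). On the next brightest, signals were 148.1, 140, 132.5, 147 and 138.1 in SCARKO pools and 197, 149.3, 172.4, 178.2 and 172.9 in control pools, groups that did not overlap. That probe set fell by 0.30 on the log2 scale (SE 0.06, adjusted p = 0.0178). The third had a change of -0.17 (adjusted p = 0.2), and the mean over the 3 was -0.20 (adjusted p = 0.0375). The call of the second probe set was lost without pair 1 (adjusted p = 0.0702), 3 (0.0799) or 5 (0.0654), with dim probe sets kept (0.0991) and with no variance trend (0.0584).

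Subunits of the Arp2/3 complex showed no call. Arpc5, a small subunit, had signals of 463.2, 505.4, 457.3, 438.4 and 506.5 in SCARKO pools and 503.7, 494.4, 482, 510.3 and 572.9 in control pools, lower in SCARKO in 4 of 5 pairs (log2 fold change -0.11, adjusted p = 0.189). Actr3, the actin-related subunit that seeds the branch, had a log2 fold change of 0.08 (adjusted p = 0.271) and Arpc2 had 0.02 (adjusted p = 0.87). Cttn, the cortactin gene, whose product steadies branches, had -0.0078 (adjusted p = 0.962). Of 9 further measured genes of the Arp2/3 and WAVE group, none was called and 8 had a negative change. Their median was -0.04, against 0.0155 for all genes. Among them Arpc5l had 310.7 to 338 in SCARKO pools and 342.6 to 376.4 in control pools, groups that did not overlap, as in 5.26% of all genes. It was lower in all 5 pairs and did not pass (log2 fold change -0.15, limma adjusted p = 0.0841).

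**Figure D3:**
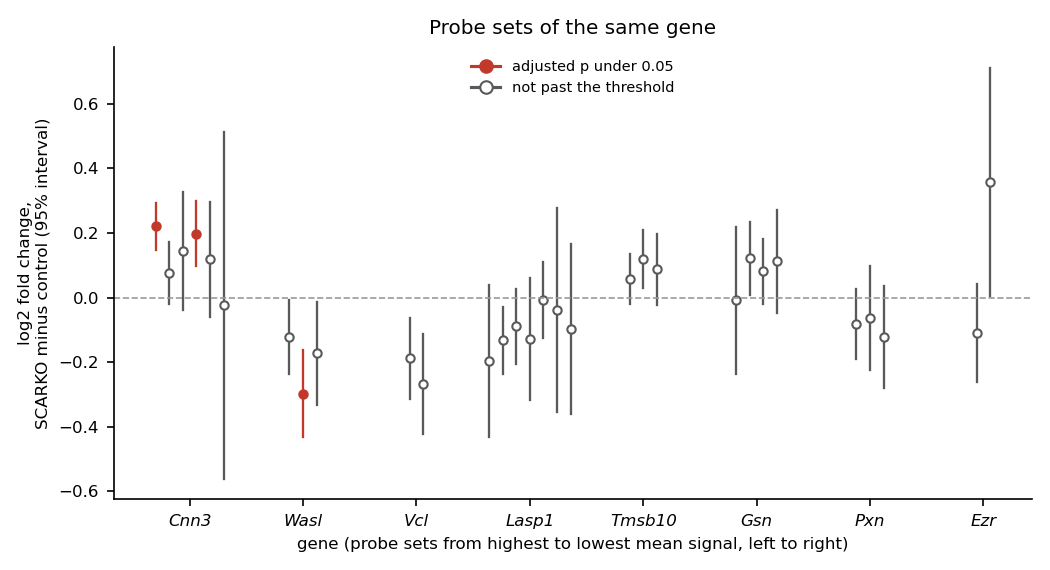
Log2 fold change (SCARKO minus control, y axis) of every measured probe set of 8 members, ordered within each gene from highest to lowest mean signal, with 95% intervals; filled red points passed an adjusted p under 0.05. Cnn3 and Wasl have called and uncalled probe sets, all 7 of Lasp1 and all 3 of Pxn lie below 0, and the 2 of Ezr lie on opposite sides.

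The linkers of actin to the membrane, ezrin, radixin and moesin, gave no call. Msn, the X-linked moesin gene, had signals of 183.9, 174.5, 166.5, 165.6 and 176.9 in SCARKO pools and 155.2, 161.3, 142.3, 152.5 and 170 in control pools. It was higher in SCARKO in all 5 pairs but did not pass (log2 fold change 0.15, SE 0.06, adjusted p = 0.142). Rdx, the radixin gene, had -0.02 (adjusted p = 0.903). Ezr, the ezrin gene, had -0.11 on its brighter probe set and 0.36 on its dimmer one, neither past the threshold. The dimmer one had signals of 19.6 to 35.4 in SCARKO pools and 12.8 to 26.1 in control pools. Its mean of 4.47 on the log2 scale was near the filter limit of 4.27, and it carries the suffix that marks possible overlap with other transcripts.

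Genes that bundle and crosslink filaments include the proteins of the ectoplasmic specialization. Espn encodes espin, a bundler concentrated in that structure. Its signal was 13.5, 14.5, 20.1, 20 and 13.7 in SCARKO pools and 39.1, 20.3, 22.1, 19.4 and 27.1 in control pools, with groups that overlapped slightly. The log2 fold change was -0.62 (SE 0.21), lower in SCARKO in 4 of 5 pairs, and it did not pass (adjusted p = 0.116). Its mean log2 signal was the lowest among the measured members, and its SCARKO mean, 4.01 on the log2 scale, lay below the filter's 4.27, so it passed only through its control mean of 4.63. The 95% interval ran from -1.07 to -0.16, and the change was -0.39 without pair 1 and -0.35 with 16 added before log2. Eps8, which encodes a capping and bundling protein of the same structure, had signals of 124.9 to 149.4 in SCARKO pools and 130.5 to 145.2 in control pools (log2 fold change 0.0011, 95% interval -0.13 to 0.13). Flna, the X-linked gene for the crosslinker filamin A, had 0.16 (adjusted p = 0.155; 0.11 without pair 3) and was higher in SCARKO in 4 of 5 pairs, and Fscn1, which encodes the bundler fascin, had 0.13 (adjusted p = 0.266; 0.19 without pair 1 and 0.06 with its probe sets averaged). The alpha-actinin genes Actn1 and Actn4 had 0.04 and -0.04.

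Of the genes of the adhesion plaque, where filaments meet junctions and matrix, 5 of 6 had a negative change and none passed on its brightest probe set. Vcl, on chromosome 14, encodes vinculin, which ties actin to cadherin and integrin complexes. It had signals of 555.8, 590.5, 565.6, 525.1 and 521.3 in SCARKO pools and 661.7, 551.6, 668.7, 618 and 647.1 in control pools. It was lower in SCARKO in pairs 1, 3, 4 and 5 and higher in pair 2, whose control pool was the low one. The log2 fold change was -0.19 (SE 0.06, adjusted p = 0.084). Its second probe set averaged 111 ± 6.01 in SCARKO pools and 134 ± 13.7 in control pools (SD, n = 5 each), did not overlap between groups and had a log2 fold change of -0.27 (adjusted p = 0.053). The mean of both passed at -0.23 (adjusted p = 0.0395), and without pair 2, the pair of opposite direction, the brighter probe set passed at -0.26 (adjusted p = 0.00619). It did not pass without pair 1 (0.199), 3 (0.238), 4 (0.185) or 5 (0.242), without the filter (0.268) or without the variance trend (0.211).

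Tln1, the talin gene, whose product links integrins to actin and recruits vinculin, was the 1 gene of this class with a positive change. Its signal was 200.3, 221, 204.2, 206.3 and 210.4 in SCARKO pools and 205.7, 172.7, 195.9, 175.9 and 180.9 in control pools, higher in SCARKO in 4 of 5 pairs, and its log2 fold change was 0.17 (adjusted p = 0.164), with 0.22 on its other probe set. Zyx, the zyxin gene, had -0.13 (adjusted p = 0.365), the paxillin gene Pxn had -0.08 (adjusted p = 0.374) and Lasp1, which encodes a LIM and SH3 domain protein of focal adhesions, had -0.20 (adjusted p = 0.329), with all 7 of its measured probe sets below 0. The Lasp1 probe set at -0.20 carries the suffix that marks possible overlap with other transcripts. Its brightest probe set without that suffix had -0.0088 (95% interval -0.13 to 0.11, limma adjusted p = 0.95). The Lasp1 change was -0.32 without pair 1, -0.08 without pair 4 and -0.10 with its probe sets averaged, and that of Zyx was -0.21 without pair 2, -0.06 without pair 3 and -0.24 with its probe sets averaged. The dimmer Zyx probe set in that average had 10.1 to 28.6 in SCARKO pools and 17.1 to 34.5 in control pools. Its mean of 4.36 on the log2 scale was near the filter limit of 4.27. Palld, which encodes the bundle scaffold palladin, had 21.1 to 38.2 in SCARKO pools and 17.1 to 45.4 in control pools, a spread that leaves its log2 fold change of -0.15 undetermined in sign (95% interval -0.53 to 0.24).

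**Figure D4:**
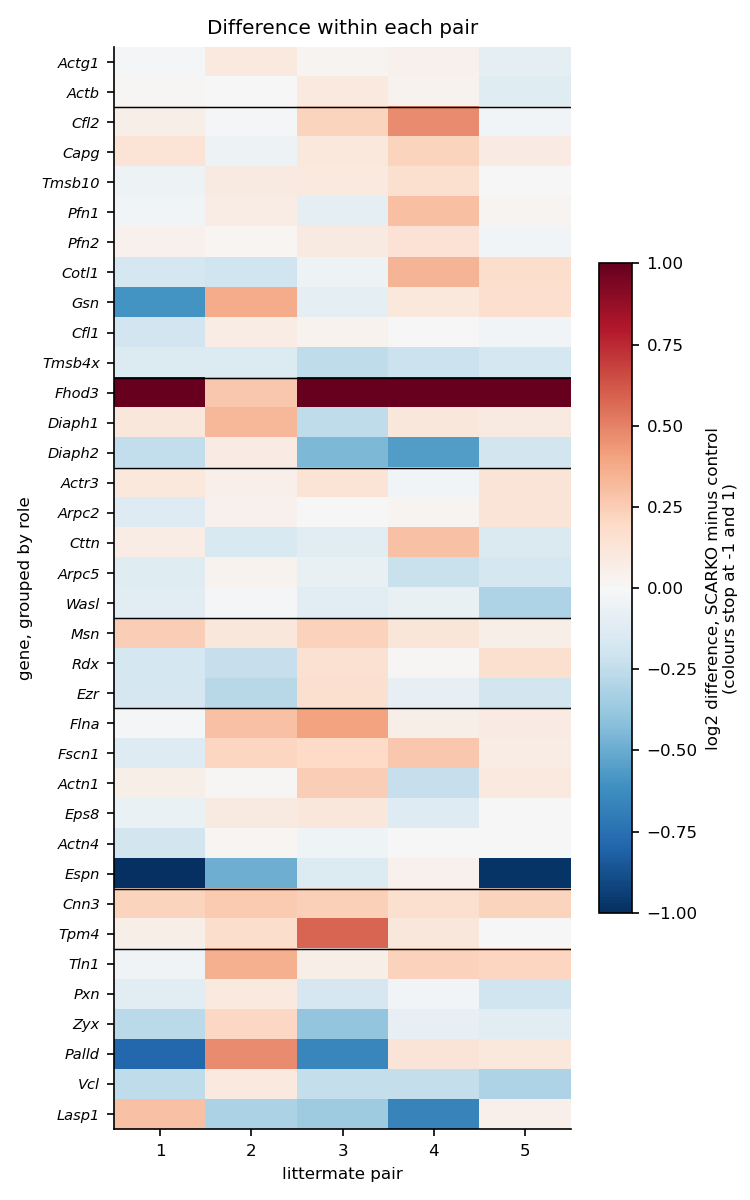
Log2 difference (SCARKO minus control) within each of the 5 littermate pairs (columns) for the 36 measured members (rows, grouped by role); red is higher and blue lower in SCARKO, and colours stop at -1 and 1. Fhod3 is higher in all pairs and weakest in pair 2, Cnn3 is evenly higher and Tmsb4x evenly lower, and Vcl, Zyx and Diaph2 change sign in pair 2.

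Pairs differed in how the members moved. The number of members higher in SCARKO was 13, 26, 20, 23 and 20 of 36 in pairs 1 to 5, and the median difference over the members was -0.06, 0.08, 0.03, 0.045 and 0.0053 on the log2 scale. In 6 of 36 members (16.7%) all 5 pairs had the same direction, against 19.7% of all genes; they were Fhod3, Cnn3, Msn and Tpm4 (higher) and Tmsb4x and Wasl (lower). In pair 5, whose labels agree, 23 of the 36 members (63.9%) had the direction of the mean of pairs 1 to 4, near the 65.7% of all genes. The members on the X chromosome, Tmsb4x, Diaph2, Msn and Flna, had changes of -0.18, -0.27, 0.15 and 0.16.

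Of 75 further genes of the actin pathway, 52 were measured and 3 (5.77%) were called, against 5.69% of all genes. Myo7a, which encodes an unconventional myosin that carries cargo along actin, had a mean signal of 208 ± 15.5 in SCARKO pools and 267 ± 22.6 in control pools (SD, n = 5 each), groups that did not overlap. It fell by 0.36 on the log2 scale (SE 0.06, adjusted p = 0.00792). Evl, which encodes an Ena/VASP protein that speeds filament growth, had 196 ± 16.4 in SCARKO pools and 236 ± 27.4 in control pools (SD, n = 5 each) and fell by 0.27 (adjusted p = 0.0458). Itga6, the laminin-binding integrin alpha-6 gene, had 379 ± 30.0 in SCARKO pools and 328 ± 25.4 in control pools (SD, n = 5 each) and rose by 0.21 (adjusted p = 0.0237). All 3 kept their direction in each of the 5 pairs. All 8 measured genes of the further adhesion group had a positive change, with a median of 0.08.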

How the data were processed

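The authors deposited linear signal intensities, with a value for each probe set on each array. MAS5 is named for 8 arrays per the submitters' processing notes, with no version, and no tool for pair 5. Replicates were not pooled further, and detection calls were not used, so depth does not apply and the 5 pairs limit precision. Symbols are those of the platform annotation, brought to GRCm38.p6 by gene identifier; 20380 of 22626 probe sets name 1 gene, and 64 control probe sets were left out. The targeted gene is not reported here.

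Values under 1 were set to 1, log2 was taken, and the dimmest 40% by mean were dropped (limit 19.3). limma 3.58.1 in R 4.3.3 was fitted to 13576 probe sets with the pair as a block and an intensity trend, two-sided, Benjamini-Hochberg adjusted over all of them, and was tested on simulated data. Fold changes are SCARKO minus control; SE is the moderated standard error. The protocols state that pools were made as littermate pairs, and which pools form a pair was taken from the numbers in the titles. Deviations of same-numbered pools correlated at 0.275, 0.186, 0.19, 0.109 and 0.386 for pairs 1 to 5, against -0.00813, 0.0783, 0.109, 0.109 and 0.0104 for the closest pool of another number, so pair 4 was no closer than that. The limma p-values set the mean difference against the spread of the within-pair differences, moderated toward the intensity trend. Members and gene lists were chosen with earlier results of these data known.

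Members named with full values were those called, the uncalled member with the smallest p in each role class, the brightest and dimmest, and those with both called and uncalled probe sets; others were named after their values were seen. Alternatives were the block, the filter, the added constant, quantile normalization, the variance trend, averaging of probe sets, each pair left out, and groups from the descriptions.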

Additional observations from a re-analysis of the deposited data

Results flagged for a closer look

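Of 72 groups of 5 pools (36 members in SCARKO and control), 4 held a pool set apart from the rest by more than 0.71 of the group's range; chance marks about 1 in 20 groups. Fhod3 had 33.1 in control pool 2, against 13.7 to 18.4 in the other control pools, and without pair 2 its log2 fold change was 1.43 (adjusted p = 0.000375). Actg1 had 1924.7 in SCARKO pool 5, against 2085.7 to 2131.9 in the other SCARKO pools. Cttn had 655.7 in SCARKO pool 4, against 579.4 to 593.5 in the others. Fscn1 had 368.3 in SCARKO pool 2, against 309.5 to 326.2 in the others.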

How the results depend on the processing

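Cnn3, Fhod3 and Tmsb4x kept their direction under every alternative in which they were tested except groups from the descriptions, and on the brightest probe set stayed called whichever pair was left out; with the lowest 60% left out Fhod3 was not tested. Probe sets called across the array numbered 704, against 404 with no replicate block, 38 with no filter on dim probe sets, 321 without a variance trend, 0 with groups from the descriptions and 304 to 743 when 1 pair was left out. Member probe sets called numbered 5, against 3 with no replicate block, 0 without the filter, 1 without the trend, 0 with groups from the descriptions and 3 to 7 when 1 pair was left out. Member genes called numbered 3, against 2 with no replicate block, 0 without the filter, 1 without the trend, 0 with groups from the descriptions and 3 to 5 when 1 pair was left out. Where no member was called, 9 members without the filter and 1 with the descriptions had an unadjusted p under 0.05 in limma, as had 611 probe sets across the array with the descriptions. The 5 calls without pair 2 added Vcl and Diaph2. Of 464 comparisons of single members, 395 kept direction and call, 7 lost a call, 4 gained one and 58 changed sign, the 3 called genes with groups from the descriptions among them. With groups from the descriptions, added after seeing the data, the log2 changes with the other sign were Actb -0.0535, Actg1 -0.0483, Actn4 0.0449, Actr3 -0.0270, Arpc5 0.0413, Capg -0.0675, Cfl1 0.0087, Cfl2 -0.1506, Cnn3 -0.1320, Diaph1 -0.0418, Diaph2 0.1984, Espn 0.2257, Ezr 0.0361, Fhod3 -0.7168, Flna -0.1331, Fscn1 -0.0960, Gsn 0.0758, Lasp1 0.2180, Msn -0.1293, Palld 0.1865, Pfn1 -0.0445, Pfn2 -0.0660, Pxn 0.0024, Rdx 0.0815, Tln1 -0.0779, Tmsb10 -0.0598, Tmsb4x 0.1149, Tpm4 -0.1847, Vcl 0.0636 and Zyx 0.0878; these groups turn 4 of 5 pairs round. After quantile normalization they were Actb -0.0578, Actg1 -0.0500 and Arpc2 -0.0006, and with probe sets averaged Actb -0.0419, Cttn 0.0167, Diaph1 -0.0307, Ezr 0.1244, Gsn 0.0765 and Rdx 0.0339. When 1 pair was left out, the members that changed sign ranged as Actb -0.0179 to 0.0365, Actg1 -0.0090 to 0.0381, Actn1 -0.0163 to 0.1032, Arpc2 -0.0136 to 0.0519, Cfl1 -0.0452 to 0.0211, Cotl1 -0.0642 to 0.0700, Cttn -0.0825 to 0.0289, Eps8 -0.0262 to 0.0341, Gsn -0.1022 to 0.1394, Palld -0.3000 to 0.0133, Pfn1 -0.0048 to 0.0954 and Rdx -0.0619 to 0.0359; none of these was called in either fit. The causes were not tested.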

Other observations

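The spread between pools of a group was smaller for the members in SCARKO testes. The median coefficient of variation of the 36 members was 6.35% over the SCARKO pools and 8.45% over the control pools, against 8.05% and 9.10% for all measured genes. It was lower in SCARKO for 26 members (72.2%), against 59.4% of all genes. These values were computed after the data were seen and were not tested.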
